A study of Mus musculus with 46 samples.

Results

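Z-disc proteins that bind alpha-actinin were followed at the RNA level through 8 groups of mouse skeletal muscle. The 10 genes were taken by name, as the proteins given under this heading, and for some of them the tie to alpha-actinin may run through partners: *Myot* (ENSMUSG00000024471), *Ldb3* (ENSMUSG00000021798), *Myoz1* (ENSMUSG00000068697), *Myoz2* (ENSMUSG00000028116), *Myoz3* (ENSMUSG00000049173), *Tcap* (ENSMUSG00000007877), *Pdlim3* (ENSMUSG00000031636), *Pdlim5* (ENSMUSG00000028273), *Flnc* (ENSMUSG00000068699) and *Synpo2* (ENSMUSG00000050315). All 10 were present in both count tables, among 17514 genes in gastrocnemius and 16987 genes in spinalis, and all 10 passed the filter on low counts in both muscles.

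The Z-disc is the plate that borders each sarcomere, where alpha-actinin crosslinks the thin filaments of neighbouring sarcomeres. Skeletal muscle has the alpha-actinin ACTN2 and, in its fast fibres, also ACTN3. Most of the proteins studied here dock on alpha-actinin and tie it to other structural proteins or to enzymes such as calcineurin, while telethonin caps titin and filamin C crosslinks actin, and mutations in several of them cause myofibrillar myopathy or cardiomyopathy.

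The series asks how *Actn3* genotype influences the response of muscle to androgen, in C57BL6 mice that were WT or *Actn3* KO. Males aged 8 to 10 weeks underwent orchidectomy (ORX) or sham surgery, and gastrocnemius RNA was sequenced 12 weeks later from 6 WT-sham, 6 KO-sham, 6 WT-ORX and 5 KO-ORX samples. Female mice received silastic implants, empty or with 10 mg of dihydrotestosterone (DHT), at 4 to 5 weeks of age, and spinalis RNA was sequenced after 6 weeks from 5 WT-empty, 5 KO-empty, 6 WT-DHT and 6 KO-DHT samples. Sex, muscle, age and surgery differ together between the experiments and cannot be told apart. The labels list 46 samples, of which 45 were analysed here, without the sixth KO-ORX sample. Spinalis libraries were assigned by group, so their numbers below only name them. The p-values set differences between groups against the spread between samples within groups. That spread was estimated over all groups of a fit.

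Total counts per library had a median of 47.1 M in WT-sham (43.4 to 50.3 M), 34.3 M in KO-sham (29.5 to 37.5 M), 45.6 M in WT-ORX (39.9 to 55.4 M) and 41.6 M in KO-ORX (26.7 to 48.5 M). In spinalis the medians were 47 M in WT-empty (37.3 to 51.2 M), 44.1 M in KO-empty (42.5 to 47.8 M), 52 M in WT-DHT (34.8 to 53.9 M) and 44.2 M in KO-DHT (34.9 to 51.7 M). Each KO-sham library held fewer counts than each WT-sham library, and the part of depth in the differences between these groups was not tested. Levels are given as counts per M counts of the library (CPM) after TMM normalisation. Differences are log2 fold changes with standard error (SE), and q is the edgeR p-value after adjustment for all genes of a contrast by the method of Benjamini and Hochberg. The threshold was q ≤ 0.01 for genotype and treatment and q ≤ 0.05 for differences between effects.

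*Actn3* was examined first, as the targeted gene. Its level in gastrocnemius ran from 5977 to 7052 CPM in WT-sham (median 6724) and from 7826 to 9617 CPM in WT-ORX (median 8964), against 35.8 to 54.7 CPM in KO-sham and 34.3 to 53.1 CPM in KO-ORX. In spinalis it ran from 8592 to 10353 CPM in WT-empty and from 6164 to 7703 CPM in WT-DHT, against 56.6 to 83.2 CPM in KO-empty and 61.4 to 77.5 CPM in KO-DHT. All 45 libraries thus matched their genotype label. The muscle fibre markers *Acta1*, *Ckm*, *Mb*, *Ttn* and *Des* were detected in every group, with *Ttn* the most abundant and a summed level between 105577 and 211297 CPM per library. *Actn2*, the remaining alpha-actinin of KO fast fibres, was at 244 to 383 CPM in WT-sham, 336 to 445 in KO-sham, 236 to 334 in WT-ORX and 309 to 407 in KO-ORX. In spinalis *Actn2* was higher in KO, at 346 to 443 CPM in KO-empty against 194 to 321 in WT-empty (log2 fold change 0.64, SE 0.13, q = 0.0031 by edgeR), and at 313 to 433 CPM in KO-DHT against 189 to 291 in WT-DHT (0.65, SE 0.12, q = 0.00036 by edgeR).

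The members spanned a wide range of abundance. Per kb of exon (GENCODE M21 models of GRCm38, used for lengths only), the WT-sham medians were 1911 CPM for *Tcap*, 1041 for *Myoz1*, 355 for *Myot*, 107 for *Ldb3*, 89.5 for *Pdlim3*, 55.3 for *Pdlim5*, 43.7 for *Flnc*, 38.7 for *Myoz2*, 20.2 for *Myoz3* and 19.1 for *Synpo2*. Neighbours in this order overlapped between libraries for *Ldb3* and *Pdlim3*, *Flnc* and *Myoz2*, and *Myoz3* and *Synpo2*. In WT-empty spinalis the order began with *Tcap* (1346 CPM per kb), *Myoz1* (811), *Myot* (340), *Ldb3* (183) and *Pdlim3* (122), followed by *Flnc* (79.6) and *Pdlim5* (52.4). *Myoz2* (22.3), *Synpo2* (19.8) and *Myoz3* (13.4) came last there and overlapped in that order. In the same annotation, exons of the 10 members overlapped those of no other gene.

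Genotype was compared within each treatment, in 4 contrasts that share no library. *Myot*, *Ldb3* and *Myoz3* were higher in KO, each past the threshold in 3 of the 4 contrasts, by 1.22-fold to 1.56-fold. No member was lower in KO past the threshold by edgeR, and DESeq2 called *Myoz1* lower in KO-DHT. Between KO-sham and WT-sham, 3 of the 10 members passed, where 5.3% of all genes passed in either direction. Between KO-ORX and WT-ORX, 2 members passed against 3.8% of all genes. In spinalis, 1 member passed between KO-empty and WT-empty against 4.25% of all genes, and 3 passed between KO-DHT and WT-DHT against 11.6%. The members were chosen with earlier results of these data known, and the paper reports higher *Myot* and *Ldb3* in KO gastrocnemius. These shares are therefore no independent test of the members. The median log2 fold change of the members was 0.16 in sham, 0.10 with ORX, 0.26 with empty implants and 0.08 with DHT, beside medians of all genes between −0.0069 and 0.0126. Markers of cell types also differed between genotypes by edgeR. Of 5 muscle fibre markers, 2 were lower in KO-sham, 3 in KO-ORX and 1 in KO-DHT, and of 7 fast fibre markers, 1 was lower in KO-ORX and 2 in KO-empty (list median −0.312). Of 3 satellite cell markers, 1 was higher in KO-sham (list median 0.538) and 2 in KO-DHT (0.887). The summed satellite cell markers, however, had a median of 15.1 CPM in KO-sham and 16.6 CPM in WT-sham. With DHT this sum had a median of 22.7 CPM in KO and 21.7 CPM in WT. *Cdh15*, the most abundant of the 3, had a median of 16.7 CPM in KO-DHT and 18.6 CPM in WT-DHT. Of 4 immune markers, 1 was lower in KO-sham, and 1 of 3 tenocyte markers was lower in KO-DHT (list median −0.735, and −0.772 in sham). Without a call, the list medians in KO-empty were 0.925 for erythroid, 0.547 for slow fibre and 0.383 for immune markers. Also without a call, adipocyte and erythroid markers had list medians of 0.521 and −0.402 in KO-DHT and of 0.448 and 0.489 in KO-ORX. The part of these marker lists in the values of the members was not tested.

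**Figure D1:**
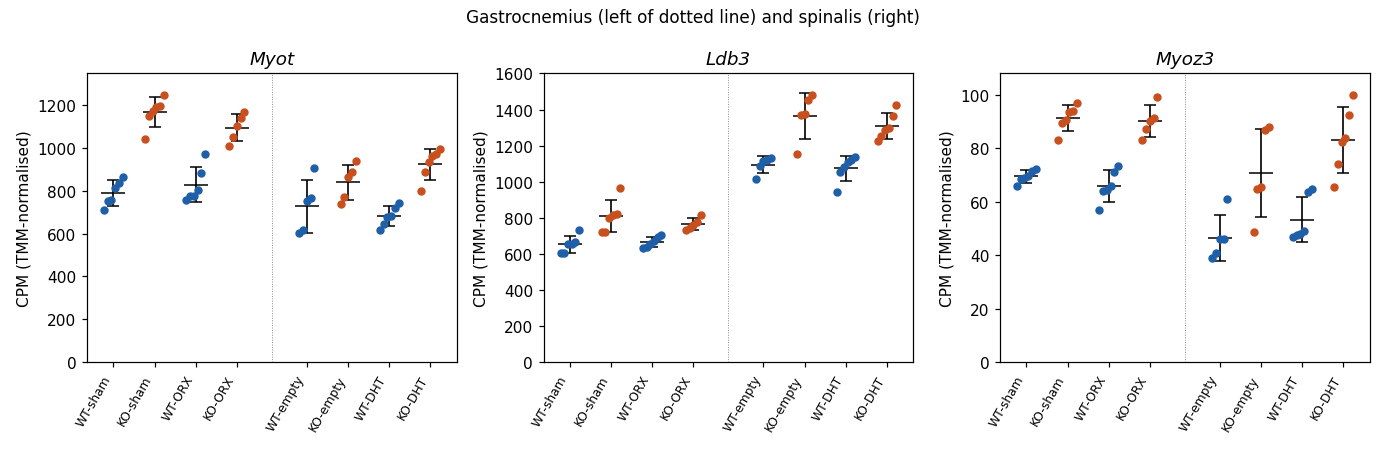
Level in CPM (y axis, TMM-normalised, from 0) of Myot, Ldb3 and Myoz3 in each library of the 8 groups (x axis), WT in blue and KO in orange, with the group mean and SD as black bars. KO libraries lay above WT libraries without overlap for Myot and Myoz3 in sham, ORX and DHT, and for Ldb3 with ORX, empty and DHT implants.

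*Myot* encodes myotilin, which binds alpha-actinin, filamin C and actin and stabilises actin bundles. In gastrocnemius it ran from 709 to 865 CPM in the 6 WT-sham libraries (median 784) and from 1041 to 1249 CPM in the 6 KO-sham libraries (median 1182). With ORX it ran from 758 to 971 CPM in WT (median 791), while the 5 KO-ORX libraries had 1138, 1167, 1104, 1011 and 1049 CPM. All KO libraries therefore lay above all WT libraries of the same treatment. The difference was 0.56 in sham (SE 0.061, q = 5.7e-07 by edgeR) and 0.40 with ORX (SE 0.064, q = 0.00013 by edgeR). In spinalis *Myot* was at 764, 904, 751, 603 and 615 CPM in WT-empty and 938, 862, 773, 740 and 887 CPM in KO-empty, and these groups overlapped. Libraries with DHT did not overlap, at 617 to 743 CPM in WT (median 680) and 797 to 994 CPM in KO (median 948). The difference was 0.21 with empty implants (SE 0.095, q = 0.18 by edgeR) and 0.44 with DHT (SE 0.087, q = 0.00062 by edgeR).

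*Myoz3*, the calsarcin of fast fibres, links alpha-actinin to calcineurin. It ran from 65.7 to 72.2 CPM in WT-sham (median 69.3) and from 83 to 96.9 CPM in KO-sham (median 92.1). With ORX it was at 56.7 to 73.3 CPM in WT (median 65.2) and at 87, 83.2, 90, 99 and 91.3 CPM in KO. The genotypes were again separated in both treatments, by 0.39 in sham (SE 0.054, q = 1.4e-05 by edgeR) and 0.45 with ORX (SE 0.056, q = 5.5e-06 by edgeR). In spinalis the values were 40.7, 38.9, 46.1, 45.9 and 60.9 CPM in WT-empty and 65.6, 86.6, 64.8, 48.6 and 87.7 CPM in KO-empty, so that the lowest KO library lay within the WT range. Libraries with DHT were at 46.9 to 64.9 CPM in WT (median 48.3) and 65.5 to 100 CPM in KO (median 83.1), without overlap. The difference was 0.60 with empty implants (SE 0.15, q = 0.011 by edgeR), which missed the threshold, and 0.64 with DHT (SE 0.14, q = 0.0014 by edgeR). For the empty implants it passed without KO-empty library 4 (0.71, q = 0.0021 by edgeR), without WT-empty library 5 (0.725, q = 0.0038) and without WT-DHT library 5 (0.61, q = 0.01), which lies outside this contrast but in the same fit. It also passed by DESeq2 (0.599, q = 0.0017) and with library-size scaling (0.64, q = 0.0024 by edgeR), which moved the median of all genes from 0.0126 to 0.0556. KO-empty library 4 stood apart in the summed markers of other cells, with 115 CPM for immune cells against 39 to 63.5 CPM in the other KO-empty libraries and 679 CPM for erythroid cells against 92.4 to 267 CPM.

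*Ldb3* encodes ZASP (Cypher), a PDZ and LIM protein that holds alpha-actinin in the Z-disc. It ran from 607 to 733 CPM in WT-sham (median 656) and from 722 to 965 CPM in KO-sham (median 807), and the ranges overlapped, with 2 KO libraries (722 and 724 CPM) below the highest WT library. The highest value was that of KO-sham library 1, which stood apart in its summed muscle fibre markers (211297 CPM against 105577 to 148199 CPM in the other KO-sham libraries), and without it the sham difference was 0.247 (q = 0.0021 by edgeR). The highest WT value was that of WT-sham library 1, which also stood apart in this sum (163270 CPM against 114358 to 128802 CPM). With each library left out in turn, the sham difference ran from 0.247 to 0.34 and passed in each fit. In WT-ORX *Ldb3* was at 635 to 703 CPM (median 662), below all KO-ORX libraries at 743, 731, 816, 778 and 760 CPM. The difference was 0.305 in sham (SE 0.059, q = 0.00099 by edgeR) and 0.20 with ORX (SE 0.062, q = 0.044 by edgeR), which missed the threshold although the groups did not overlap. With library-size scaling the ORX difference was 0.249 and passed (q = 0.0045 by edgeR), while the median of all genes moved from 0.00855 to 0.0537. In spinalis *Ldb3* was at 1089, 1123, 1133, 1013 and 1115 CPM in WT-empty and 1451, 1483, 1370, 1155 and 1373 CPM in KO-empty. With DHT it ran from 945 to 1136 CPM in WT (median 1095) and from 1228 to 1426 CPM in KO (median 1292). KO lay above WT without overlap in both, by 0.32 with empty implants (SE 0.069, q = 0.004 by edgeR) and 0.285 with DHT (SE 0.063, q = 0.0019 by edgeR). The call with empty implants was lost without WT-empty library 4 or KO-empty library 1, 2 or 3, where the difference was 0.29 to 0.32 (q between 0.01 and 0.013 by edgeR). In a fit of only WT-empty and KO-empty it was 0.32 (q = 0.034 by edgeR).

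The other 7 members did not pass between genotypes in any of the 4 contrasts by edgeR in the fit of all groups of a muscle. *Tcap* was 0.30 higher in KO-sham (q = 0.022 by edgeR) and 0.48 higher in KO-empty (q = 0.029 by edgeR), both short of the threshold. Without WT-sham replicate 1 the first of these was 0.36 (q = 0.0081 by edgeR), and it passed with only the groups compared (0.311, q = 0.0083 by edgeR). That replicate stood apart in its summed muscle fibre markers (163270 CPM against 114358 to 128802 CPM in the other WT-sham libraries). DESeq2 called *Tcap* in both contrasts (0.312, q = 0.0065, and 0.474, q = 0.0084). With 1 library left out at a time, its KO-empty difference ran from 0.314 to 0.564 and did not pass by edgeR. *Flnc* was 0.415 higher in KO-empty (q = 0.033 by edgeR), and 0.50 without KO-empty library 4 (q = 0.0079 by edgeR), the library with the high immune and erythroid sums. *Myoz1* was 0.23 lower in KO-DHT than in WT-DHT (q = 0.017 by edgeR), and 0.27 lower without WT-DHT library 2 (q = 0.0068 by edgeR). That library had a fibroblast sum of 2588 CPM, against 1364 to 1955 CPM in the other WT-DHT libraries. Its tenocyte sum was 158 CPM against 31.5 to 108 CPM, and its muscle fibre sum (124885 CPM) was the lowest in WT-DHT. DESeq2 called *Myoz1* at −0.235 (q = 0.0052). *Pdlim3* was 0.267 higher in KO-DHT (q = 0.039 by edgeR), and 0.362 higher with library-size scaling (q = 0.0042 by edgeR), which moved the median of all genes from 0.00639 to 0.0878. For *Synpo2* all KO-empty libraries (295 to 392 CPM) lay above all WT-empty libraries (169 to 294 CPM), with a difference of 0.49 (SE 0.17, q = 0.078 by edgeR).

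**Figure D2:**
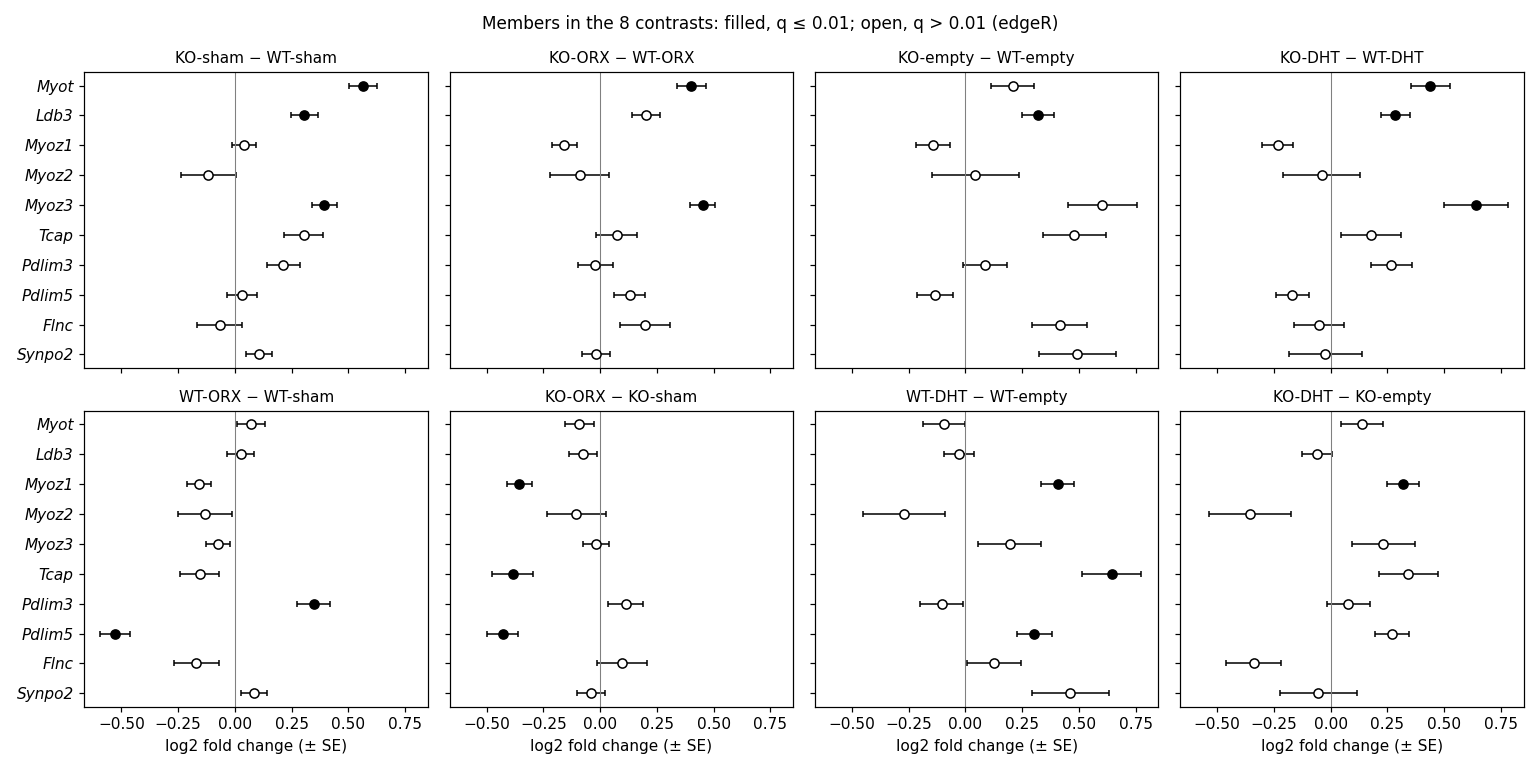
Log2 fold change (x axis) with SE of the 10 members (y axis) in the 4 genotype contrasts (upper row) and the 4 treatment contrasts (lower row), filled where q ≤ 0.01 and open otherwise. Myot, Ldb3 and Myoz3 were to the right of 0 in all genotype contrasts, and Pdlim5 was to the left of 0 with ORX and to the right with DHT in both genotypes.

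Treatment was compared within each genotype, and these contrasts use the same libraries as the genotype contrasts. *Myoz1*, *Tcap* and *Pdlim5* were lower after ORX, past the threshold in at least 1 genotype, and higher with DHT, again in at least 1 genotype. *Pdlim3* was higher in WT-ORX. With ORX, 2 of the 10 members passed in WT (1 higher, 1 lower) against 5.45% of all genes, and 3 passed in KO, all lower, against 5.57%. Markers of cell types moved in the same contrasts. In WT-ORX, 2 of 5 muscle fibre markers, the 2X fibre marker *Myh1* (−0.609, q = 0.005 by edgeR) and 1 of 4 immune markers fell, although the medians of the muscle fibre list (0.0229) and the immune list (0.0869) lay above 0, 2 of 7 fast fibre markers rose (list median 0.155), and of 5 fibroblast markers 1 rose and 1 fell. In KO-ORX, *Des* (−0.276, q = 0.0034 by edgeR) and *Mb* (−0.564, q = 0.0055) of the 5 muscle fibre markers fell, *Fmod* of 3 tenocyte markers rose (1.23, q = 0.0027, list median 0.71) and *Lum* of 5 fibroblast markers rose (0.57, q = 2e-04, list median 0.237). *Myh1* (−0.613, q = 0.0074 by edgeR) and 2 of 7 fast fibre markers also fell there. With DHT, 3 members passed in WT, all higher, against 11.3% of all genes, and 1 passed in KO, also higher, against 4.62%. In WT-DHT, 2 of 5 muscle fibre markers and 1 of 4 endothelial markers (list median 0.359) rose, 1 of 7 fast fibre markers fell (list median 0.0115), and of 5 fibroblast markers 1 rose and 1 fell. In KO-DHT, 2 of 7 fast fibre markers rose, 1 of 8 slow fibre markers fell, and of 5 fibroblast markers 1 rose and 1 fell. The summed muscle fibre markers went the other way in WT, with a median of 182473 CPM in WT-empty and 153228 CPM in WT-DHT. The slow fibre list had medians of −1.1 in WT-DHT and −1.62 in KO-DHT. Without a call, list medians in WT-DHT included 0.74 for erythroid, −0.605 for satellite cell and −0.524 for adipocyte markers. Those in KO-DHT included −0.534 for erythroid and −0.493 for tenocyte markers. The part of these markers in the values of the members was not tested. The median log2 fold change of the members was −0.10 in WT and −0.08 in KO with ORX, and 0.16 in WT and 0.11 in KO with DHT, beside medians of all genes between −0.0112 and 0.0145. *Myot*, *Ldb3* and *Myoz3* did not pass in any treatment contrast. Their log2 fold changes lay between −0.09 and 0.07 with ORX and between −0.09 and 0.23 with DHT.

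*Pdlim5* encodes ENH, a PDZ and LIM protein that brings protein kinases to alpha-actinin. It ran from 471 to 523 CPM in WT-sham (median 491) and from 467 to 548 CPM in KO-sham (median 501). After ORX it ran from 301 to 391 CPM in WT (median 339) and was at 403, 440, 368, 329 and 327 CPM in KO. All ORX libraries lay below all sham libraries of their genotype. *Pdlim5* fell by 0.53 in WT (SE 0.066, q = 2.3e-06 by edgeR) and by 0.43 in KO (SE 0.069, q = 0.00015 by edgeR) on the log2 scale. In spinalis it was at 529, 526, 465, 421 and 441 CPM in WT-empty and at 488, 397, 423, 468 and 397 CPM in KO-empty. With DHT it ran from 531 to 617 CPM in WT (median 597), above all WT-empty libraries, and from 445 to 573 CPM in KO (median 530), where the groups overlapped. It rose by 0.30 in WT (SE 0.076, q = 0.0053 by edgeR), and in KO the difference was 0.27 (SE 0.076, q = 0.023 by edgeR). The WT call was lost without WT-empty library 3, 4 or 5 or without WT-DHT library 1, 3, 4, 5 or 6, with differences of 0.26 to 0.30 (q between 0.01 and 0.023 by edgeR). It was also lost with library-size scaling (0.23, q = 0.046 by edgeR), which moved the median of all genes from −0.00632 to −0.0747, and in a fit of only the groups compared (0.30, q = 0.012 by edgeR). The KO difference passed without KO-DHT library 6 (0.31, q = 0.0082 by edgeR) and by DESeq2 (0.27, q = 0.0091).

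*Myoz1*, another calsarcin of fast fibres, ran from 1907 to 2108 CPM in WT-sham (median 1969) and from 1624 to 1897 CPM in WT-ORX (median 1812). In KO it ran from 1846 to 2249 CPM in sham (median 2026) and was at 1466, 1664, 1717, 1520 and 1633 CPM after ORX. Sham and ORX libraries were separated in both genotypes. The difference was −0.16 in WT (SE 0.053, q = 0.057 by edgeR), short of the threshold, and −0.36 in KO (SE 0.055, q = 1e-04 by edgeR). In spinalis *Myoz1* was at 1635, 1663, 1534, 1469 and 1396 CPM in WT-empty and at 1793 to 2259 CPM in WT-DHT (median 2052). KO-empty libraries had 1374, 1506, 1332, 1226 and 1532 CPM, and KO-DHT libraries ran from 1631 to 1801 CPM (median 1761). DHT libraries lay above the empty ones of their genotype without overlap, by 0.41 in WT (SE 0.072, q = 0.00017 by edgeR) and 0.32 in KO (SE 0.071, q = 0.0053 by edgeR). The KO call was lost without KO-empty library 1, 3 or 4 or KO-DHT library 1, 2, 3 or 4, at 0.275 to 0.314 (q between 0.011 and 0.023 by edgeR), and in a fit of only KO-empty and KO-DHT (0.31, q = 0.012 by edgeR).

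*Tcap* encodes telethonin, which caps the ends of titin molecules in the Z-disc. It ran from 1643 to 2171 CPM in WT-sham (median 1812) and from 1312 to 1968 CPM in WT-ORX (median 1733), with overlap. KO-sham libraries ran from 1951 to 2413 CPM (median 2346), above all KO-ORX libraries at 1530, 1878, 1943, 1602 and 1727 CPM. The difference was −0.15 in WT (SE 0.086, q = 0.31 by edgeR) and −0.385 in KO (SE 0.091, q = 0.006 by edgeR). The KO call was lost without KO-sham replicate 2, 3, 4 or 6 or KO-ORX replicate 1, 4 or 5, at −0.38 to −0.34 (q between 0.012 and 0.025 by edgeR). KO-ORX replicate 1, with the lowest *Tcap* of its group, stood apart in summed markers of other cells. It had 3349 CPM for fibroblasts against 1431 to 2462 CPM in the other KO-ORX libraries, and 449 CPM for tenocytes against 167 to 328 CPM. With library-size scaling the KO difference was −0.28 (q = 0.017 by edgeR), a scaling that moved the median of all genes in this contrast from 0.01 to 0.12. In spinalis *Tcap* was at 1340, 1333, 1276, 1256 and 960 CPM in WT-empty, all below the WT-DHT libraries at 1629 to 2366 CPM (median 1819). KO-empty libraries had 1308, 1579, 1455, 1786 and 2472 CPM, the last of them above all KO-DHT libraries at 1839 to 2415 CPM (median 2175). The difference was 0.645 in WT (SE 0.13, q = 0.001 by edgeR) and 0.34 in KO (SE 0.13, q = 0.1 by edgeR), and the latter was 0.51 without KO-empty library 5 (q = 0.0057 by edgeR).

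*Pdlim3* encodes ALP, which strengthens the binding of alpha-actinin to actin. It ran from 390 to 512 CPM in WT-sham (median 461) and from 548 to 657 CPM in WT-ORX (median 570), without overlap, a rise of 0.35 (SE 0.074, q = 0.0022 by edgeR). In KO it ran from 472 to 631 CPM in sham (median 509) and was at 606, 557, 510, 596 and 602 CPM after ORX, a difference of 0.11 (SE 0.077, q = 0.4 by edgeR). In spinalis its groups overlapped, at 579 to 666 CPM in WT-empty, 502 to 655 in WT-DHT, 570 to 817 in KO-empty and 572 to 774 in KO-DHT.

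**Figure D3:**
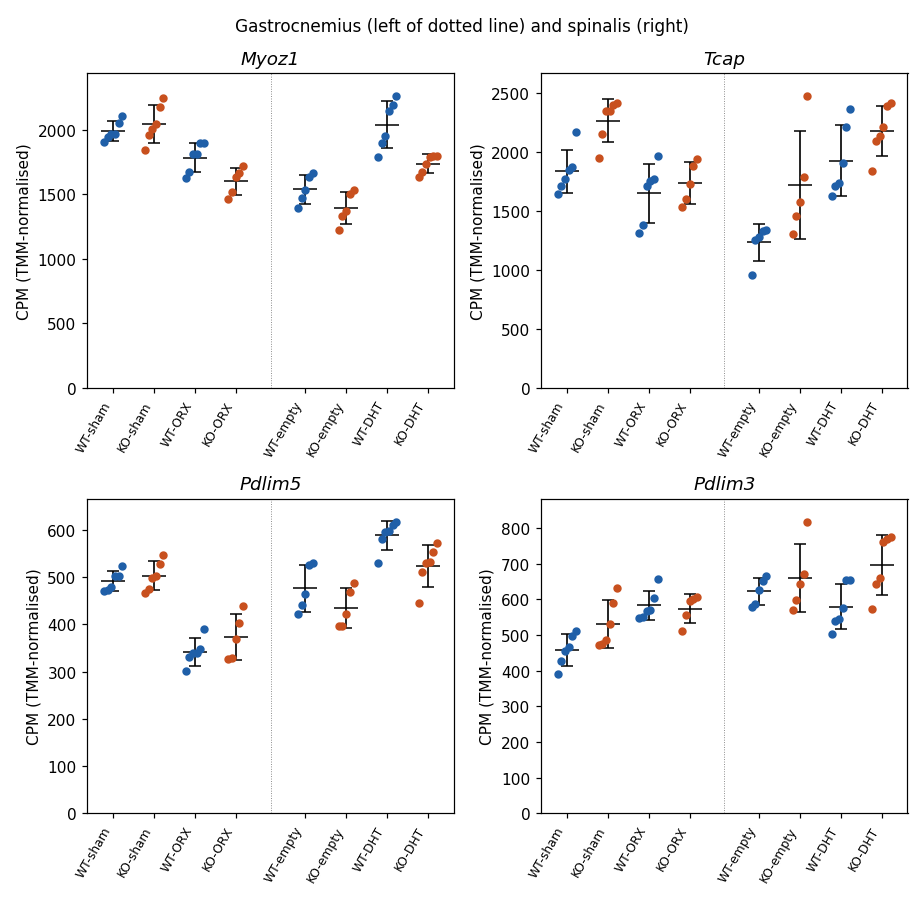
Level in CPM (y axis, TMM-normalised, from 0) of Myoz1, Tcap, Pdlim5 and Pdlim3 in each library of the 8 groups (x axis), WT in blue and KO in orange, with the group mean and SD as black bars. Pdlim5 ran from 301 to 391 CPM in WT-ORX and from 471 to 523 CPM in WT-sham, and Pdlim3 was higher in WT-ORX than in WT-sham.

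*Myoz2*, *Flnc* and *Synpo2* did not pass in any contrast. *Myoz2*, the calsarcin of slow fibres and heart, had group medians between 108 and 132 CPM in gastrocnemius and between 74 and 90 CPM in spinalis. Its highest value in spinalis was 138 CPM, in WT-empty library 2. The summed level of 8 slow fibre markers (8 of 8 in the tables, none at 0, *Myh7* the most abundant in spinalis) was also highest among the WT-empty libraries in library 2, at 2173 CPM against 444 to 1494 CPM in the other WT-empty libraries. This sum ran from 948 to 2343 CPM in KO-empty, from 252 to 1052 CPM in WT-DHT and from 322 to 1237 CPM in KO-DHT. The difference of *Myoz2* with DHT was −0.27 in WT (SE 0.18, q = 0.34 by edgeR) and −0.35 in KO (SE 0.18, q = 0.22 by edgeR). The WT difference ran from −0.356 to −0.0569 with each library left out in turn, so its size depended on the libraries kept. The KO difference ran from −0.428 to −0.26 in these fits. Fewer fibres of a type and less RNA per fibre cannot be told apart in whole muscle. The part of fibre type in these values was not tested. *Flnc* encodes filamin C, a crosslinker of actin at the Z-disc and the membrane, and had medians between 364 and 411 CPM in gastrocnemius and between 748 and 1105 CPM in spinalis. *Synpo2* encodes myopodin, which binds filamin and alpha-actinin, and had medians between 250 and 269 CPM in gastrocnemius and between 259 and 351 CPM in spinalis.

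Whether the treatment effect differed between genotypes was tested as an interaction, KO minus WT. For ORX, 0 of the 10 members passed q ≤ 0.05 by edgeR, where 0.0228% of all genes did, and 2 members had an unadjusted p under 0.05 (*Myoz1*, −0.20, q = 0.37, and *Pdlim3*, −0.235, q = 0.48), as had 1683 of all 17514 genes. For DHT, 0 members passed by edgeR against 3.24% of all genes, and 2 had an unadjusted p under 0.05 (*Flnc*, −0.465, q = 0.15, and *Synpo2*, −0.52, q = 0.29), as had 2564 of all 16987 genes. DESeq2 and limma-voom also called 0 members in both interactions. The DHT difference of *Flnc* was −0.34 in KO (q = 0.061 by edgeR) and 0.13 in WT (q = 0.52 by edgeR), and its interaction passed without KO-empty library 4 (−0.55, q = 0.049 by edgeR). Its WT difference ran from 0.0541 to 0.208 with 1 library left out at a time, and did not pass. A response of *Myoz1*, *Tcap*, *Pdlim5* or *Pdlim3* that passed in 1 genotype alone was thus not shown to differ between genotypes.

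The KO-WT difference in control groups was compared between muscles in a fit of all 8 groups over the 16642 genes in both tables. Of the 10 members, 0 passed q ≤ 0.05 by edgeR, against 1.65% of all genes. At an unadjusted p under 0.05 there were 4, beside 2564 of the 16642 genes, and limma-voom called 0, as did library-size scaling with edgeR. The difference of *Myot* was larger in gastrocnemius by 0.37 (SE 0.12, q = 0.08 by edgeR), and by 0.44 without WT-empty library 4 (q = 0.033 by edgeR) or 0.43 without WT-empty library 5 (q = 0.038 by edgeR). For *Flnc* it was smaller by 0.47 (SE 0.17, q = 0.13 by edgeR), and for *Ldb3* it differed by 4.43e-05 (SE 0.091), so that its KO-WT differences in the muscles had nearly the same estimate.

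Of 32 other Z-disc genes, *Actn2* among them, 5 were higher and 2 lower in KO-sham than in WT-sham, and 3 were higher and 2 lower in KO-ORX than in WT-ORX, beside 5.3% and 3.8% of all genes. *Xirp2*, which bundles actin, was higher by 0.33 in sham (q = 8.6e-06 by edgeR) and 0.39 with ORX (q = 1.8e-06 by edgeR), and the titin-binding *Ankrd23* by 0.88 (q = 1.9e-05 by edgeR) and 0.67 (q = 0.00085 by edgeR). *Trim54* was lower by 0.253 (q = 0.001 by edgeR) and 0.347 (q = 6.2e-05 by edgeR). *Capn3* passed in sham (0.274, q = 0.00089 by edgeR) and *Klhl40* with ORX (0.337, q = 0.0018 by edgeR). In spinalis 6 were higher and 0 lower in KO-empty, led by *Smtnl1* (0.99, q = 6.1e-06 by edgeR), the chaperone *Cryab* (1.01, q = 0.0013), *Fhl1* (0.68, q = 0.0017) and *Klhl41* (0.287, q = 0.002), and 5 were higher and 0 lower in KO-DHT, led by *Ankrd23* (0.70, q = 8.9e-07), *Klhl40* (0.78, q = 1.1e-05), *Smtnl1* (0.609, q = 0.00017) and *Fhl1* (0.657, q = 3e-04). The medians of this list were 0.103, 0.0804, 0.135 and 0.12 in the 4 genotype contrasts, with those of all genes between −0.0069 and 0.0126. Of all genes, 4.25% passed with empty implants and 11.6% with DHT.

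With treatment, *Ppp3ca*, the catalytic subunit of the calcineurin that calsarcins bind, rose by 0.45 in WT-ORX (q = 3.8e-07 by edgeR) and fell by 0.63 in WT-DHT (q = 3.7e-07 by edgeR) and by 0.37 in KO-DHT (q = 0.0012 by edgeR). *Fhl3* moved the other way, at −0.65 in WT-ORX (q = 0.00021 by edgeR), −0.58 in KO-ORX (q = 0.0018), 0.80 in WT-DHT (q = 2.9e-05) and 0.77 in KO-DHT (q = 0.00017). Over the 32 genes, 4 rose and 4 fell with ORX in WT, 1 rose and 3 fell in KO, 4 rose and 1 fell with DHT in WT, and 1 rose and 1 fell in KO, beside 5.45%, 5.57%, 11.3% and 4.62% of all genes. Of 10 other members of the same protein families, some of them also among the 32, 3 rose with ORX in WT (*Palld*, 0.62, q = 1.9e-06 by edgeR, *Pdlim7*, 0.31, q = 0.00056, and *Synpo2l*, 0.28, q = 0.0016). Those that rose with ORX in KO included *Palld* (0.52, q = 9.4e-05 by edgeR). None of these 10 passed with DHT by edgeR. Between genotypes, *Pdlim7* alone passed in that list, lower in KO-ORX (−0.42, q = 3.6e-05 by edgeR) and KO-empty (−0.485, q = 0.00012 by edgeR).

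The genes whose levels were most like those of *Myot*, *Myoz3* and *Ldb3* were sought by the smaller of their Pearson r over 23 gastrocnemius and 22 spinalis libraries, which share depth, genotype and treatment as sources of variation. For *Myot* these were *Sucla2* (r 0.85 and 0.84), *Yipf7* (0.92 and 0.84) and *Psmb1* (0.84 and 0.83). *Ldb3* was followed most closely by *Myom2*, the M-band protein myomesin 2 (0.93 and 0.90), *Egf* (0.83 and 0.83) and *Abcc5* (0.83 and 0.82). For *Myoz3* they were *Gm5113* (0.82 and 0.89), *Bckdk* (0.83 and 0.80) and *Lin28a* (0.86 and 0.79).

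Promoter sequences of RefSeq (GRCm38.p6, 250 bases before to 50 bases after each start) were matched by symbol for 6 of the 10 members: *Ldb3*, *Pdlim5* and *Flnc* with 2 starts each, and *Myoz2*, *Pdlim3* and *Synpo2* with 1. *Myot*, *Myoz1*, *Myoz3* and *Tcap* had no entry. The 5 motifs searched on both strands were a loose form of the MEF2 site (10 bases, with any base at the middle 4, where MEF2 itself binds A or T), the E-box CAGCTG, the androgen receptor half-site AGAACA, the MCAT element CATTCC and the TATA box TATAAA. The loose MEF2 form was found in 5 of the 9 promoters of members (both of *Ldb3*, which overlap and share their sites, and 1 each of *Myoz2*, *Flnc* and *Synpo2*) and in 3.69% of all 32851 promoters in the table. The middle 4 bases were all A or T in the matches of *Myoz2* and *Synpo2* only. Those of *Ldb3* and *Flnc* held C or G there, so they are not MEF2 sites in the strict form. The strict form was not counted over all promoters. The half-site was found in 2 of the 9, both of *Ldb3* (19% of all promoters), CAGCTG in 2, of *Myoz2* and *Pdlim3* (16.3%), CATTCC in 3, of *Pdlim3* and both of *Flnc*, which overlap and share the site (14.7%), and TATAAA in 2, of *Pdlim5* and *Synpo2* (13.6%). In *Synpo2* the TATAAA match lies within the MEF2 match. The 250 bases before the start are shown for the first start of *Ldb3* (chr14:34588682-34588931, minus strand) and *Pdlim3* (chr8:45885237-45885486, plus strand), members that changed, and for *Myoz2* (chr3:123034988-123035237, minus strand), where the MEF2 match lies nearest before the start. The motifs were chosen with the expression results known, and a match describes the sequence only. Capitals mark the motif matches, read 5′ to 3′ on the strand of the gene.
Ldb3: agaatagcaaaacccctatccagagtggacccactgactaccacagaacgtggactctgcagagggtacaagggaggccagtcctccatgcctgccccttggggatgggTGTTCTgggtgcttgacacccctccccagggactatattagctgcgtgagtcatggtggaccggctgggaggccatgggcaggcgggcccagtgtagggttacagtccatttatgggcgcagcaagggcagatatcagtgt
Pdlim3: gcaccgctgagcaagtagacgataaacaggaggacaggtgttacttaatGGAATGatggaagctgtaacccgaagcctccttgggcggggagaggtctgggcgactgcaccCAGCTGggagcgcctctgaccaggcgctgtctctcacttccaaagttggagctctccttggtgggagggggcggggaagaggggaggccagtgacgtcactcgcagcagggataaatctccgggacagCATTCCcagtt
Myoz2: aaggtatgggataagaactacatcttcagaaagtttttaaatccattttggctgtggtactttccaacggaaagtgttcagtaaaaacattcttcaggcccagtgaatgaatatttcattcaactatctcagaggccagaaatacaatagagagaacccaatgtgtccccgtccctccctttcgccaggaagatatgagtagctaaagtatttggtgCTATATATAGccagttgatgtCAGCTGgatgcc
In *Ldb3* the capitals are the half-site on the opposite strand, beginning at −141 from the start. The loose MEF2 match of *Ldb3* begins at +20, after the start and beyond the bases shown. In *Pdlim3* they are the MCAT element on the opposite strand at −201, the E-box at −139 and the MCAT element at −11, and in *Myoz2* the MEF2 match at −33 and the E-box at −12.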

How the data were processed

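The deposited values were counts of reads per gene, which the authors made from stranded total RNA libraries. The submitters' processing notes name STAR 2.7.1b, SAMtools 1.9, Picard 2.20.2, Subread 2.0.0 with featureCounts and the build GRCm39. The annotation release and the strand setting of the counting were not given in the sources used here. Gene symbols were matched by Ensembl identifier for 17433 of 17514 and 16920 of 16987 genes, and 0 columns were left unmapped. Counts of each muscle were fitted with edgeR 4.0.16 in R 4.3.3 with TMM normalisation, a mean per group, no block and quasi-likelihood F tests. Genes needed 0.5 CPM or more in 2 or more libraries, which removed 0 genes. A joint fit used genes in both tables. Alternatives were DESeq2 1.42.0, limma-voom (limma 3.58.1), library-size scaling, at least 10 counts in every library, only the groups compared, a replicate block and the removal of each library. The code was tested on simulated data. All 10 members are named in every contrast in which they matter, and of each further list some or all of the 4 called genes with the smallest p-values. The nearest genes are given in the results for members called in at least 2 genotype contrasts, and under other observations for members that changed with treatment. The members and lists were chosen with earlier results of these data known. Figures were drawn with matplotlib 3.10.9 in Python 3.11.15.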

Additional observations from a re-analysis of the deposited data

Results flagged for a closer look

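Among 80 sets of values (10 members in 8 groups), 1 held a library far from the others. *Tcap* in WT-empty library 5 was at 960 CPM, against 1256 to 1340 CPM in the other 4 WT-empty libraries, and its gap to the nearest of them was 0.793 of the range of the group on the log2 scale. Chance alone gives about 1 in 20 such sets.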

How the results depend on the processing

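Of the 18 calls of a member in a contrast, none changed direction in any alternative. Of 100 refits with another test, scaling, filter or choice of groups, or with a replicate block, 95 kept the call. The number of members called between KO-empty and WT-empty was 1, and it moved to 3 with DESeq2, to 2 with library-size scaling and to 0 with only the groups compared. Of all 16987 genes, 722 were called in the main fit, and 1057, 533 and 290 in these alternatives. Between KO-DHT and KO-empty the number of members called was 1, and it moved to 2 with DESeq2 and to 0 with only the groups compared. Of all genes, 784 were called in the main fit of that contrast, and 1201 and 505 in these alternatives. With each library of a muscle left out in turn, and each of the 22 control libraries for the comparison of muscles, the number called ranged from 0 to 3 between KO-empty and WT-empty, from 0 to 2 between KO-DHT and KO-empty, from 0 to 1 for the interaction with DHT and from 0 to 1 for the comparison of muscles. A replicate block, possible for gastrocnemius alone, gave 3, 2, 2 and 3 members called in the KO-sham, KO-ORX, WT-ORX against WT-sham and KO-ORX against KO-sham contrasts and 0 in the interaction, as without it. For this, the deviations of log2 CPM from the group mean were correlated between libraries of different groups. The median r was 0.00697 (−0.15 to 0.188) for the same number and −0.00881 for other numbers. Of 23 libraries, 7 had their best match in their own number, and the numbers were not taken as pairs. No paired analysis was possible for spinalis because its columns carry no replicate numbers of the labels. Each member had at least 1479 counts in each library.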

Other observations

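The genes most like the members that changed with treatment were looked up after the values of those members had been seen. Over the 23 gastrocnemius and 22 spinalis libraries, the genes most like *Pdlim5* included *Aldh1a1*, which makes retinoic acid (Pearson r 0.92 and 0.90), and *8430426J06Rik* (0.91 and 0.86). *Myoz1* was most like *Slc25a4*, the mitochondrial ADP/ATP carrier of muscle (0.91 and 0.86), the fast troponin I gene *Tnni2* (0.86 and 0.90) and *Mylf-ps* (0.87 and 0.85). *Tcap* was most like *Pfkfb1* (0.81 and 0.80), *Vdac1* (0.83 and 0.79) and *Coq7* (0.80 and 0.79). *Pdlim3* was most like *Eif4h* (0.73 and 0.72), *Fbxo28* (0.75 and 0.72) and *Napa* (0.74 and 0.69). The libraries share depth, genotype and treatment, so these values describe likeness only.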
